A study of Mus musculus with 19 samples.

Results

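Aortas of mice with too little fibrillin-1 were set against wild-type aortas at 30 days of age. The comparison took the 8 libraries labelled 30 days out of 19 in the series: 4 from wild-type mice and 4 from mice labelled fibrillin-1 hypomorphic, which the series' design text gives as Fbn1mgR/mgR, that is, homozygous for the mgR allele. All were male mice on the C57BL/6 background, and the labels name no treatment. RNA came from frozen aortic tissue, and the labels do not say which segment was taken or whether each library was a separate animal. The deposited table gives 1 expression value per gene for each genotype, pooled over its libraries, so no value below has an SD or an n and no difference has a replicate check. Of 37668 listed genes, 13930 were above 0 in both groups with a mean of at least 1 FPKM (fragments per kilobase of transcript, scaled to the number of mapped fragments) and were compared.

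Fibrillin-1 is a large glycoprotein that polymerises into the microfibrils of connective tissue. In the aortic wall, microfibrils guide the deposition of elastin into lamellae and tie those lamellae to smooth muscle cells. They also hold latent TGF-beta in the matrix, through its latent binding proteins. Mutations of the human gene cause Marfan syndrome, in which the aortic root widens and may dissect. The mgR allele yields a structurally normal protein in reduced amount, and homozygous mice develop aneurysm early in life. The deficiency is present in every tissue from conception, so the model does not single out a cell type or an age.

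The difference of a gene is given as log2((hypomorph FPKM + 1)/(wild-type FPKM + 1)), called the log2 difference, which understates the change of genes at low levels. A gene is counted as 2-fold or 1.5-fold higher or lower when this log2 difference reaches 1 or 0.585 in size. Among the 13930 compared genes, 523 (3.75%) were at least 2-fold higher in the hypomorph and 185 (1.33%) at least 2-fold lower. At 1.5-fold the counts were 1214 (8.72%) and 721 (5.18%). The median log2 difference over all compared genes was 0.04, its quartiles were -0.19 and 0.25, and 55.0% were on the higher side. A 4-fold difference was reached by 66 genes upward and by 5 downward. With no added constant the 2-fold counts became 805 and 343. At the edge of the upper threshold lay Baz1a (5.25 against 2.122 FPKM) inside and Kif2c (2.44 against 0.723 FPKM) outside. At the lower edge lay Vstm4 (8.22 against 17.5 FPKM) inside and the microRNA gene Mir3074-1 (12.4 against 25.9 FPKM) outside.

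Listed FPKM summed to 502130 in the hypomorph and 531140 in wild type, and the depth of the libraries is unknown. Some abundant transcripts were listed at 0, which can be a failed estimate. Elastin (Eln), the collagen chains Col1a1, Col1a2 and Col3a1, Sparc, Bgn and the smooth muscle actin Acta2 were listed at 0 in both groups. Filamin A (Flna) was listed at 0 in the hypomorph and at 2524 FPKM in wild type. The mitochondrial mt-Co1 was listed at 0 in both, and mt-Co3, mt-Atp6 and mt-Atp8 were listed at 0 in wild type and at 4358, 2978 and 2858 FPKM in the hypomorph. None of these genes could be compared. The difference also ran with transcript length across genes: split into 5 bins by length, the median was -0.16 in the bin of the shortest genes and 0.18 in that of the longest (Spearman rho 0.31 across 13389 genes, which are not independent). In whole tissue, fewer cells of a type and less RNA per cell cannot be told apart.

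**Figure D1:**
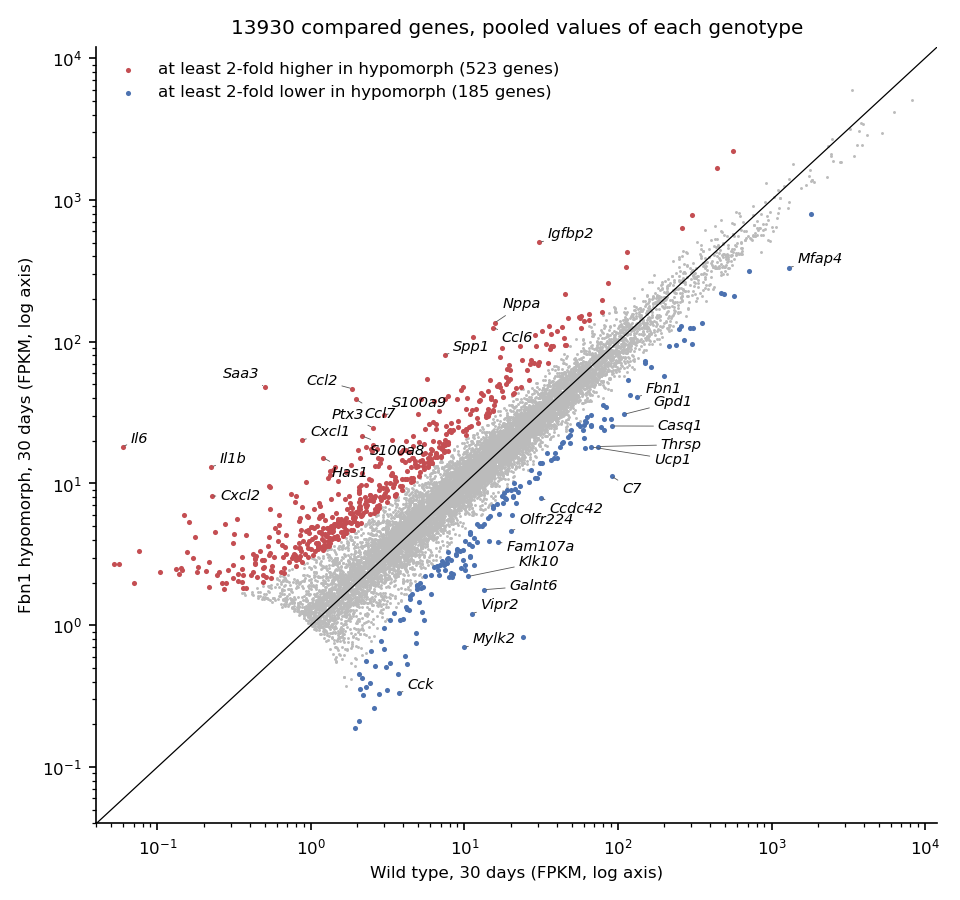
Pooled FPKM of 13930 compared genes in wild-type (horizontal, log axis) and Fbn1 hypomorphic (vertical, log axis) aorta at 30 days, each point 1 gene, with the line of equal values. Red points (523 genes) are at least 2-fold higher and blue points (185 genes) at least 2-fold lower in the hypomorph on the log2(FPKM + 1) scale; Fbn1, the 15 largest positive differences and 14 of the 15 most negative are labelled, and Il6 and Saa3 lie farthest above the line.

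Fbn1 itself, the gene that the allele affects, checks the labels. Its transcript stood at 40.9 FPKM in the hypomorph and 133.9 FPKM in wild type, so that the hypomorph held 30.6% of the wild-type value (log2 difference -1.69). The gene (ENSMUSG00000027204) lies on chromosome 2 from 125126330 to 125333729 in mm9 and shares its span with 1 other listed gene. The tissue label was borne out by smooth muscle transcripts such as Tagln (3461 and 3916 FPKM in hypomorph and wild type) and Myh11 (563 and 854 FPKM), while Acta2, a defining marker, was listed at 0.

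Several other transcripts of the microfibril stood lower together with Fbn1. Of 17 listed genes of microfibril proteins 15 were compared. Of these, 7 were at least 1.5-fold lower and 1 higher, against 5.18% and 8.72% of all compared genes. Their median log2 difference was -0.51. The count of 7 and the median include Fbn1, which the allele affects, so they do not describe the other members alone. Mfap4, a microfibril-associated glycoprotein that binds fibrillin and elastin, was at 334 FPKM in the hypomorph and 1304 FPKM in wild type (log2 difference -1.96). It lies on chromosome 11 from 61298933 in mm9 and shares its span with 1 other gene. Mfap5, a small glycoprotein of microfibrils, was at 433 against 860 FPKM, and its relative Mfap2 at 55.0 against 86.8 FPKM. Among enzymes and related proteins that act on microfibrils, Adamts17 was at 1.10 against 3.96 FPKM and Adamtsl2 at 25.8 against 59.6 FPKM, while Adamts10 differed little (65.4 against 74.0 FPKM). Fbn1, Mfap4, Adamts17 and Adamtsl2 were the 4 members at least 2-fold lower.

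The latent TGF-beta binding proteins, which dock latent TGF-beta on microfibrils, did not move as a group. Ltbp4 was at 520 FPKM in the hypomorph and 950 FPKM in wild type (log2 difference -0.87). Ltbp2, which binds fibrillin but not latent TGF-beta, was the member on the higher side, at 159 against 87.1 FPKM (log2 difference 0.86). Ltbp1 (134 against 132 FPKM) and Ltbp3 (129 against 138 FPKM) were close to equal. Fbn2, the fetal fibrillin, was under the level for comparison at 0.543 and 0.261 FPKM.

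Elastin-associated proteins had a median log2 difference of 0.18 over 10 compared of 12 listed. Fbln1, encoding fibulin-1 of elastic fibres and basement membranes, was at 94.0 FPKM against 215.8 FPKM (log2 difference -1.19). Fbln5, which links elastin to cells, was near equal at 199 against 203 FPKM, and Efemp2, encoding fibulin-4, was at 222 against 175 FPKM. The cross-linking enzymes had a median of 0.27 over 6 genes. Loxl2 was at 95.9 against 58.7 FPKM (log2 difference 0.70), Lox at 251 against 212 FPKM and Loxl1 at 285 against 320 FPKM. Lower microfibril transcripts thus stood beside cross-linking enzymes whose values lay between -0.27 and 0.70 on the log2 difference.

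**Figure D2:**
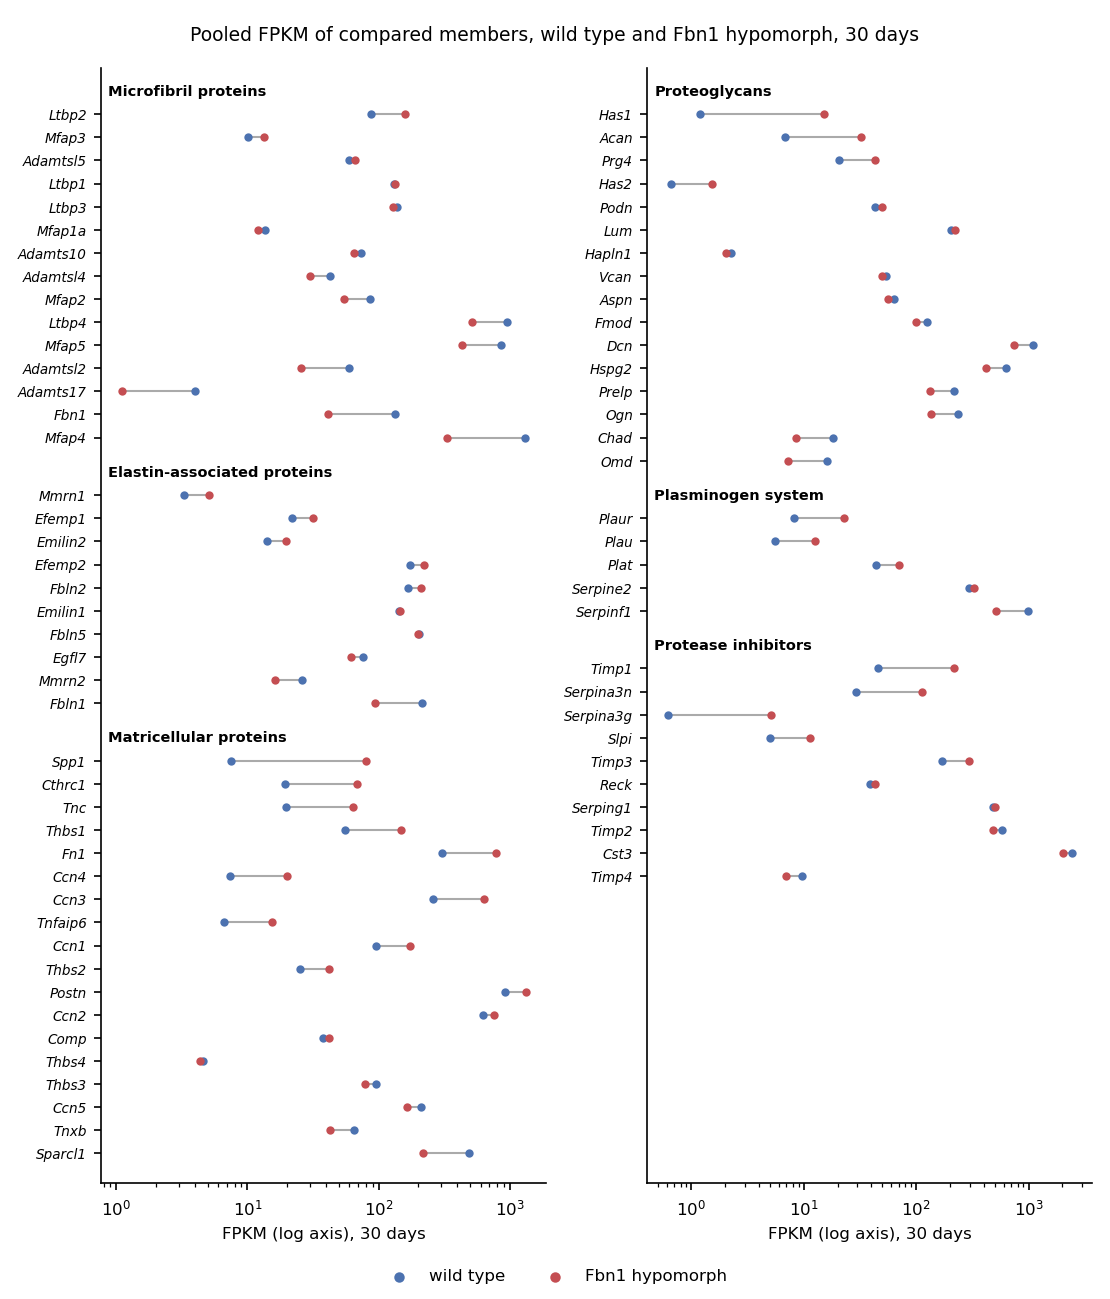
Pooled FPKM (log axis) of compared members of 6 groups of matrix genes in wild-type (blue) and Fbn1 hypomorphic (red) aorta at 30 days, joined by a line per gene and ordered by log2 difference within a group. Microfibril proteins lie mostly with red to the left, down to Mfap4 at 334 against 1304 FPKM, and matricellular proteins mostly with red to the right, led by Spp1 at 80.9 against 7.44 FPKM.

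Genes of collagen chains and of collagen processing went both ways, with a median of -0.01 over 40 compared of 49 listed. Col8a1, a short-chain collagen of the vessel wall, was at 39.4 FPKM in the hypomorph and 8.91 FPKM in wild type (log2 difference 2.03). Col11a1 (5.94 against 1.15 FPKM), Col2a1 (6.63 against 1.71 FPKM) and Col12a1 (38.1 against 12.4 FPKM) were also at least 2-fold higher. Col11a1 and Col2a1 are fibrillar chains best known from cartilage, and Col12a1 is a chain that decorates fibrils. The basement membrane chains Col4a1 (503 against 330 FPKM) and Col4a2 (436 against 266 FPKM) were at least 1.5-fold higher, whereas Col4a3 was at 15.1 against 22.3 FPKM. Chains of collagen VI, a microfibril-forming collagen, were on the lower side: Col6a6 at 2.67 against 10.1 FPKM, Col6a2 at 234 against 414 FPKM and Col6a1 at 250 against 372 FPKM. In collagen processing, the prolyl hydroxylase subunit P4ha3 was at 5.38 against 1.76 FPKM and the procollagen C-proteinase enhancer Pcolce2 at 54.1 against 116.8 FPKM.

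Genes listed as matricellular proteins, a class that mostly signals to cells rather than builds the scaffold, stood higher. Of 20 listed 18 were compared; 8 were at least 2-fold higher and 1 lower, beside 3.75% and 1.33% of all compared genes, with a median log2 difference of 0.79. Spp1 (osteopontin) was at 80.9 FPKM in the hypomorph and 7.44 FPKM in wild type. Fibronectin (Fn1), a structural protein of the matrix that the list also holds, was at 789 against 305 FPKM. Tenascin C (Tnc) was at 63.7 against 19.7 FPKM and thrombospondin 1 (Thbs1), an activator of latent TGF-beta, at 148 against 56.0 FPKM. Of the CCN family, Ccn3 (632 against 259 FPKM) and Ccn4 (20.1 against 7.42 FPKM) were at least 2-fold higher, and Ccn2 was at 765 against 625 FPKM. Sparcl1, an anti-adhesive relative of Sparc, was the member lower by 2-fold, at 217 against 492 FPKM.

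Among proteoglycans and the enzymes that make hyaluronan, the synthase Has1 was at 15.2 FPKM in the hypomorph and 1.20 FPKM in wild type (log2 difference 2.88). The large proteoglycan Acan (aggrecan) was at 32.3 against 6.79 FPKM, while its relative Vcan (versican) was at 50.1 against 54.3 FPKM. Small leucine-rich proteoglycans, which bind and space collagen fibrils, were mostly lower: Omd at 7.19 against 16.2 FPKM, Chad at 8.53 against 18.2 FPKM, Ogn at 137 against 238 FPKM and Dcn (decorin) at 743 against 1089 FPKM. Lum (lumican) was an exception at 222 against 205 FPKM. The 16 compared proteoglycan genes had a median of -0.15, with 4 at least 1.5-fold higher and 5 lower, beside 8.72% and 5.18% of all genes.

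Matrix proteases differed by family. The matrix metalloproteinases had a median of -0.11 over 13 compared of 17 listed. Mmp12, the macrophage elastase, was at 3.80 against 1.08 FPKM, Mmp3 (stromelysin) at 39.3 against 21.8 FPKM, Mmp9 at 2.24 against 2.04 FPKM and Mmp2 at 147 against 221 FPKM. In the plasminogen system, which generates plasmin at the cell surface, the urokinase receptor Plaur was at 22.9 against 8.12 FPKM and urokinase (Plau) at 12.6 against 5.49 FPKM. Serpinf1, an antiangiogenic serpin, was lower at 514 against 985 FPKM. The inhibitor Timp1 was at 216 against 45.4 FPKM, Timp3 at 294 against 170 FPKM and Timp2 at 482 against 575 FPKM. Timp1 shares its span with 6 other genes. Of the cathepsins, lysosomal proteases, Ctss was at 89.8 against 17.5 FPKM and Ctsc at 69.7 against 26.5 FPKM, while Ctsb, Ctsd, Ctsh, Ctsl and Ctsz each lay within 0.10 of equal on the log2 difference. Adam8 (8.40 against 0.744 FPKM), Adam12 (4.82 against 1.04 FPKM) and the aggrecanase Adamts4 (4.06 against 1.01 FPKM) were higher.

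Transcripts of TGF-beta and BMP signalling had a median of 0.23 over 56 compared of 60 listed genes, and 40 of the 56 were on the higher side, beside 55.0% of all compared genes. Of the 56, 9 reached 1.5-fold upward and 5 downward, beside 8.72% and 5.18% of all. Of the ligands, Tgfb1 was at 36.3 against 29.2 FPKM, Tgfb2 at 43.3 against 28.5 FPKM and Tgfb3 at 76.7 against 81.1 FPKM. Inhba, the activin A subunit, was at 23.6 against 9.72 FPKM and Gdf6 at 6.23 against 1.84 FPKM. Bmp4 (35.0 against 50.4 FPKM) and Bmp6 (24.4 against 39.7 FPKM) were on the lower side. The receptors Tgfbr1 (24.9 against 21.7 FPKM) and Tgfbr2 (39.5 against 34.1 FPKM) differed little, whereas the BMP receptor Bmpr1b was at 2.32 against 8.18 FPKM (log2 difference -1.47). Smad2, Smad3, Smad4 and the inhibitory Smad7 had log2 differences of 0.20, 0.44, 0.30 and 0.25. Of 14 transcripts known to respond to these ligands, 3 were at least 2-fold higher and 1 lower, beside 3.75% and 1.33% of all genes. Among the higher were Junb (42.2 against 13.3 FPKM) and Thbs1. Tgfbi, a secreted protein named for its induction by TGF-beta, was lower at 73.7 against 150.01 FPKM, and Smad7, Pmepa1 (187 and 187 FPKM) and Ccn2 stayed under 1.5-fold.

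Inflammatory mediators held the largest differences of the comparison. Of 110 listed genes 87 were compared, and 40 were at least 2-fold higher and 1 lower, against 3.75% and 1.33% of all compared genes; the median log2 difference was 0.90. Of the 87, 19 were under 1 FPKM in wild type and passed the filter on level through the hypomorph. Not compared were 19 members below the level, 3 listed at 0 in wild type (Ccl20, Saa1 and Saa2) and Ccl21a, which matched no listed gene. The cytokine Il6 was at 18.1 FPKM in the hypomorph and 0.0593 FPKM in wild type (log2 difference 4.18). Il1b, made by activated myeloid cells, was at 13.1 against 0.224 FPKM, its antagonist Il1rn at 4.57 against 0.238 FPKM and Il11, an IL-6 family cytokine of fibroblasts and smooth muscle, at 2.56 against 0.185 FPKM. Tnf was below the level at 0.456 and 0.129 FPKM, and Csf1, the growth factor of macrophages, was equal at 58.7 and 56.7 FPKM.

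CC chemokines, which recruit monocytes and lymphocytes, had a median log2 difference of 1.88 over 11 compared of 16 listed. Ccl2, the main ligand of the monocyte receptor Ccr2, was at 46.6 FPKM in the hypomorph and 1.85 FPKM in wild type. Ccl7, another ligand of the same receptor, was at 39.1 against 1.97 FPKM, Ccl6 at 125.7 against 15.4 FPKM, Ccl12 at 11.8 against 2.14 FPKM and Ccl9 at 92.9 against 22.9 FPKM. Ccl2 and Ccl6 each share their span with 1 other gene. The eosinophil chemokine Ccl11 (8.71 against 12.8 FPKM) and the lymphoid chemokine Ccl19 (14.5 against 22.2 FPKM) were on the lower side.

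CXC chemokines had a median of 1.40 over 11 compared of 14 listed, and 6 of the 11 were under 1 FPKM in wild type. The median was 2.24 with no added constant and 0.80 over the members with a mean of at least 5 FPKM. The neutrophil attractants Cxcl1 (20.2 against 0.876 FPKM), Cxcl2 (8.16 against 0.225 FPKM), Cxcl3 (3.36 against 0.0760 FPKM) and Cxcl5 (6.61 against 0.541 FPKM) were each at least 4-fold higher on the log2(FPKM + 1) scale. Cxcl10, an interferon-induced attractant of T cells, was at 9.65 against 0.533 FPKM, and shares its span with 3 other genes. Cxcl12, the constitutive ligand of Cxcr4, was at 163 against 115 FPKM. The platelet chemokines Pf4 (57.3 against 42.6 FPKM) and Ppbp (10.05 against 11.3 FPKM) were near equal.

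**Figure D3:**
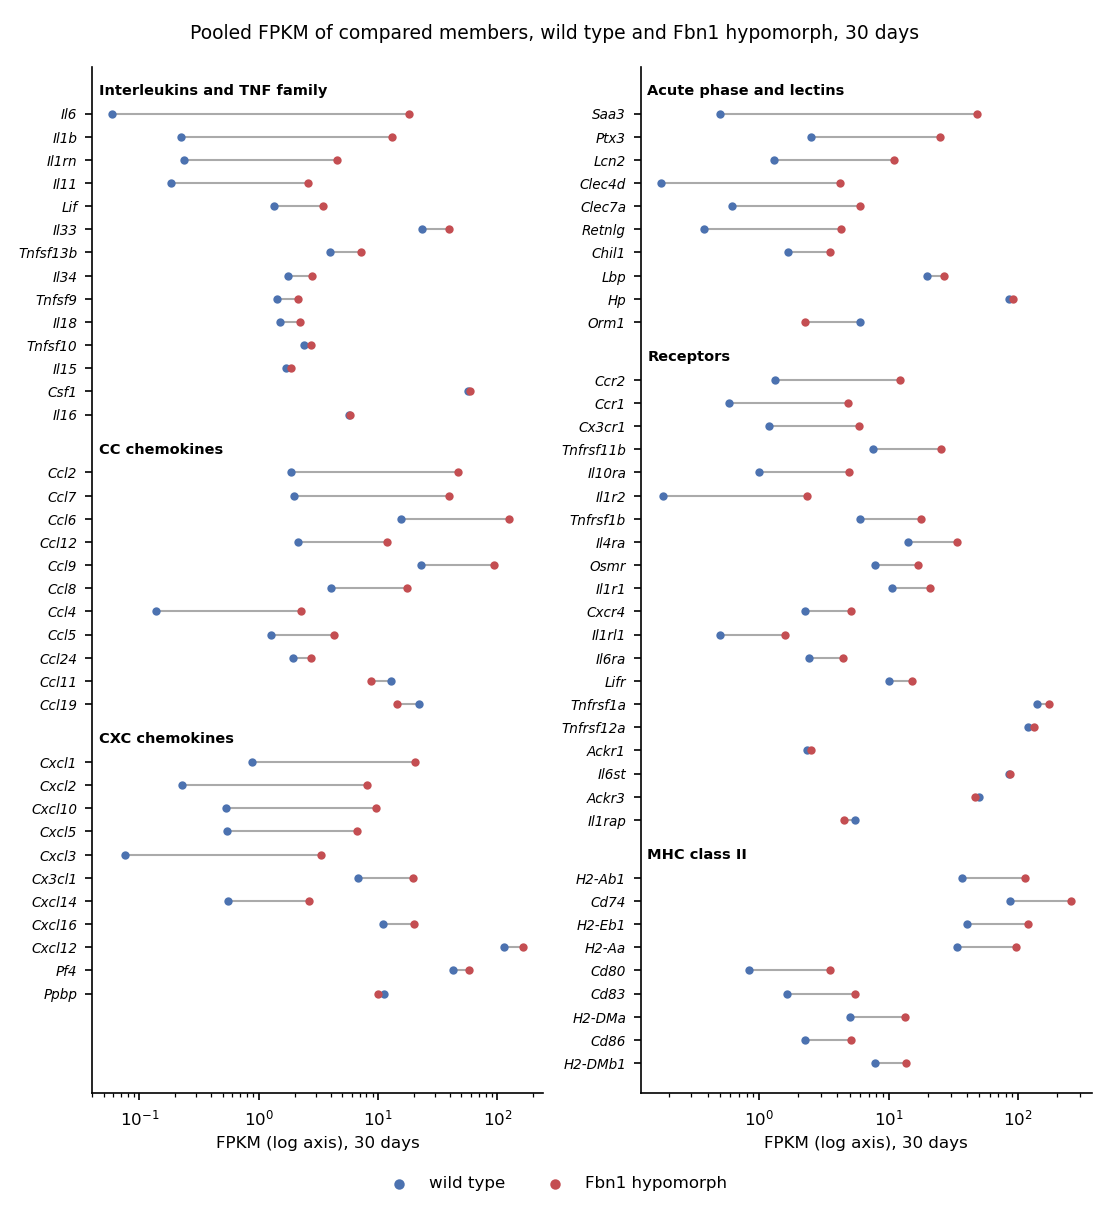
Pooled FPKM (log axis) of compared inflammatory ligands, acute phase genes and receptors and of the MHC class II group in wild-type (blue) and Fbn1 hypomorphic (red) aorta at 30 days, ordered by log2 difference within each group. The longest lines are those of Il6 (0.0593 to 18.1 FPKM) and Saa3 (0.498 to 48.2 FPKM); Orm1, Ccl19 and Ccl11 have the largest differences in the other direction.

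Promoters of mediators were searched for the NF-kB site, the binding sequence of the transcription factor family that drives many acute inflammatory genes. The site was sought as a largely fixed pattern of letters on both strands of the 250 bases before the gene's start in RefSeq (build GRCm38.p6). Sites spelled otherwise were not counted, so the shares hold for that pattern only. The pattern was found in 8 of the 65 compared mediators with a promoter there (12.3%). It was found in 112 of 27025 genes with a promoter (0.414%) and in 42 of 9886 compared genes (0.425%). Mediators were searched whatever their difference, so this share does not bear on the genotypes. The 2 matching members with the largest differences are printed 5′ to 3′ with the match in capitals, Il6 from chr5:30012864-30013113 (plus strand) and Cxcl1 from chr5:90890995-90891244 (plus strand).
Il6: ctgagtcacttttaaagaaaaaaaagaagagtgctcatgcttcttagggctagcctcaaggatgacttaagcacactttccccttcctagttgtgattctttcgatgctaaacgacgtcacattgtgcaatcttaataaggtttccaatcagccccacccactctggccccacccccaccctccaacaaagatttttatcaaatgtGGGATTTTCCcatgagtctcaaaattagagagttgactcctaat
Cxcl1: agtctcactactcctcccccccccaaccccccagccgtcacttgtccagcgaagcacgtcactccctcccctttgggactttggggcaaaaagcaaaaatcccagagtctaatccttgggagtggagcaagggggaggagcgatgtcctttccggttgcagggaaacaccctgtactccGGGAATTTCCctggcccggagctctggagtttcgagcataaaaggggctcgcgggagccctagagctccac
The match in Il6 begins 44 bases before the start, and that in Cxcl1 71 bases. A match shows that the letters are present and not that the site is used.

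Receptors of the mediators stood higher too, with a median of 0.93 over 21 compared, 3 of them under 1 FPKM in wild type. Of the 21, 10 reached 2-fold upward, beside 3.75% of all genes. The chemokine receptors of monocytes Ccr2 (12.2 against 1.33 FPKM), Ccr1 (4.88 against 0.586 FPKM) and Cx3cr1 (5.87 against 1.18 FPKM) were among them. Tnfrsf11b (osteoprotegerin), a decoy receptor made by smooth muscle, was at 25.4 against 7.58 FPKM. Receptor chains found on most cells, Il6st (86.1 against 84.3 FPKM) and Tnfrsf1a (174 against 139 FPKM), were within 1.5-fold. The leukocyte receptors stood higher in the same pooled samples in which leukocyte markers were higher (described further on), and the part of cell number was not tested.

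The acute phase protein Saa3 had the largest log2 difference of all named genes, 5.04, at 48.2 FPKM in the hypomorph and 0.498 FPKM in wild type. It lies on chromosome 7 from 53967368 to 53971046 in mm9. The pentraxin Ptx3 was at 24.8 against 2.53 FPKM, lipocalin 2 (Lcn2) at 10.9 against 1.29 FPKM, and the haptoglobin gene Hp near equal at 90.4 against 84.4 FPKM. Orm1 was lower at 2.26 against 6.04 FPKM. Downstream of cytokine receptors, Socs3, a feedback inhibitor induced by STAT3, was at 39.2 against 5.23 FPKM, while Socs1 was at 5.63 against 7.88 FPKM. Bcl3 was at 20.1 against 4.18 FPKM and the adhesion molecules Vcam1 at 74.5 against 27.1 FPKM and Sele at 4.43 against 1.18 FPKM. The NF-kB subunits Rela (37.7 against 42.5 FPKM) and Nfkb1 (42.8 against 36.5 FPKM) and the inhibitor Nfkbia (46.4 against 41.9 FPKM) differed little.

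Of 14 compared toll-like receptors and adaptors, 6 reached 1.5-fold upward and 0 downward, beside 8.72% and 5.18% of all genes. Of the 14, 3 were under 1 FPKM in wild type and passed the filter on level through the hypomorph. Cd14, the co-receptor for lipopolysaccharide, was at 31.1 against 4.95 FPKM and Tlr7 at 4.20 against 1.07 FPKM. Tlr4 was at 14.3 against 10.3 FPKM. Aim2 (2.44 against 0.287 FPKM) and Casp4 (14.2 against 5.75 FPKM) of the inflammasome were higher, Casp1 was equal (3.57 against 3.71 FPKM), and Nlrp3 was below the level at 1.34 and 0.254 FPKM.

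Interferon-stimulated genes were on the higher side in all 28 compared of 31 listed, with 16 at least 1.5-fold higher, beside 8.72% of all genes. Of the 28, 3 were under 1 FPKM in wild type. The median log2 difference of the 28 was 0.78, and 0.44 over those with a mean of at least 5 FPKM. Irf7, the transcription factor that amplifies type I interferon, was at 40.1 FPKM in the hypomorph and 10.4 FPKM in wild type. Antiviral effectors included Isg15 (23.7 against 8.10 FPKM), Oas1a (6.73 against 1.85 FPKM), Mx1 (2.37 against 0.2501 FPKM) and Ifit1 (6.62 against 2.07 FPKM); Oas1a has near-identical copies, such as Oas1g (3.32 against 0.863 FPKM), between which reads could be split. Irf1 at 23.0 against 18.8 FPKM and Gbp2 at 16.9 against 15.1 FPKM stayed under 1.5-fold.

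The interferon-stimulated response element, which interferon-activated transcription factors bind, was sought on both strands of the same windows. It too was sought as a largely fixed pattern of letters, and elements spelled otherwise were not counted. The pattern was found in 11 of 21 compared members with a promoter (52.4%), in 936 of 27025 genes (3.46%) and in 315 of 9886 compared genes (3.19%). Here too members were searched whatever their difference. Isg15 (chr4:156200819-156201068, minus strand) and Oas1a (chr5:120907526-120907775, minus strand) are the matching members with the largest differences, with the matches in capitals.
Isg15: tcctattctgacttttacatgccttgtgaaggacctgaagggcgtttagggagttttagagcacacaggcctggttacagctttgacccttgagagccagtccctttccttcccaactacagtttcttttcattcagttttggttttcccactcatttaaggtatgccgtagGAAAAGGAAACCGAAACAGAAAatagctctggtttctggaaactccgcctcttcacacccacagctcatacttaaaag
Oas1a: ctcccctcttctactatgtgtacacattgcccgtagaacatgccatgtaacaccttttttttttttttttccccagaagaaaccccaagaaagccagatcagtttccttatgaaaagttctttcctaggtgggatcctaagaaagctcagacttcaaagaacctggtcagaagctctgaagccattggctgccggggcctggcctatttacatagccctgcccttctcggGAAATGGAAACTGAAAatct
Isg15 held 3 overlapping matches that begin between 66 and 78 bases before the start, and Oas1a 2 that begin at 14 and 20 bases.

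MHC class II genes, which present antigen on macrophages, dendritic cells and B cells, stood apart from class I. All 9 compared of 10 class II members were at least 1.5-fold higher, beside 8.72% of all genes, with a median of 1.31. Of the 9, 1 was under 1 FPKM in wild type and passed the filter on level through the hypomorph. The invariant chain Cd74 was at 258 against 86.2 FPKM and H2-Ab1 at 113 against 36.8 FPKM. Class I genes, carried by nearly all cells, had a median of 0.07 over 8 compared, with B2m at 694 against 650 FPKM and H2-K1 at 343 against 358 FPKM. Of 19 compared complement genes, 8 reached 1.5-fold upward and 3 downward, beside 8.72% and 5.18% of all genes, and 1 was under 1 FPKM in wild type. Among the higher were C1qa at 198 against 78.9 FPKM, C5ar1 at 15.2 against 2.75 FPKM and C3ar1 at 8.42 against 1.51 FPKM. C3 was near equal at 120 against 112 FPKM. The terminal component C7, which adventitial fibroblasts also express, was at 11.2 against 90.9 FPKM (log2 difference -2.91), and the complement inhibitor Cd59a at 23.8 against 49.7 FPKM.

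Markers of macrophages stood higher throughout. All 15 defining markers were compared and all were at least 1.5-fold higher, 13 of them at least 2-fold, beside 8.72% and 3.75% of all genes. Their median log2 difference was 1.602. None was at 0, but 1 of the 15 was under 1 FPKM in wild type and passed the filter on level through the hypomorph. The summed level of the 15 was 776 FPKM in the hypomorph and 228 FPKM in wild type. Itgam (CD11b) was at 18.1 against 2.27 FPKM, Adgre1 (F4/80) at 21.5 against 4.62 FPKM, Lyz2 (lysozyme) at 430 against 115 FPKM and Csf1r at 41.02 against 14.95 FPKM. Of markers of resident macrophages, Lyve1 was at 33.5 against 10.2 FPKM, Folr2 at 36.0 against 15.6 FPKM, Timd4 at 2.91 against 1.05 FPKM and Mertk at 25.6 against 15.8 FPKM, the last with the smallest difference of the defining markers. Trem2, a lipid receptor of macrophages in lesions, was at 15.1 against 2.08 FPKM. Genes that other vessel cells also express, Apoe (1399 against 1293 FPKM), Cd36 (31.1 against 36.3 FPKM) and Gpnmb (5.71 against 6.94 FPKM), were near equal. How much of the difference in mediators, class II genes and complement runs with these markers was not tested.

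Other blood cells differed in their markers. All 5 compared neutrophil genes were at least 2-fold higher, with S100a9 at 30.2 against 2.99 FPKM, S100a8 at 21.7 against 2.14 FPKM and Csf3r at 5.45 against 0.830 FPKM; their median was 1.95. It was 3.34 with no added constant and 1.08 over the members above 0 in both groups at any level. Of 14 listed, 8 were below the level and 1 was listed at 0, and 3 of the 5 compared were under 1 FPKM in wild type and passed through the hypomorph; 3.75% of all genes were at least 2-fold higher. Their summed level was 65.6 FPKM in the hypomorph and 7.22 FPKM in wild type. Ly6g, a defining marker, was at 0.341 FPKM in the hypomorph and listed at 0 in wild type, and the granule genes Mpo, Elane, Ltf, Camp and Ngp of immature neutrophils were at most 0.378 FPKM in both groups. T cell genes were low: of 15 listed 5 were compared, with Trbc2 at 1.35 against 3.15 FPKM and Cd3g at 1.03 against 1.40 FPKM, and reads of Trbc2 and its copy Trbc1 could be split. Mast cell genes such as Cpa3 (2.06 against 2.72 FPKM) were near equal. Haemoglobin transcripts, a sign of blood in the tissue, were equal between genotypes, with a median of 0.02 over 7 compared; Hbb-bs was at 2412 against 2327 FPKM and Alas2 at 22.8 against 22.9 FPKM.

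**Figure D4:**
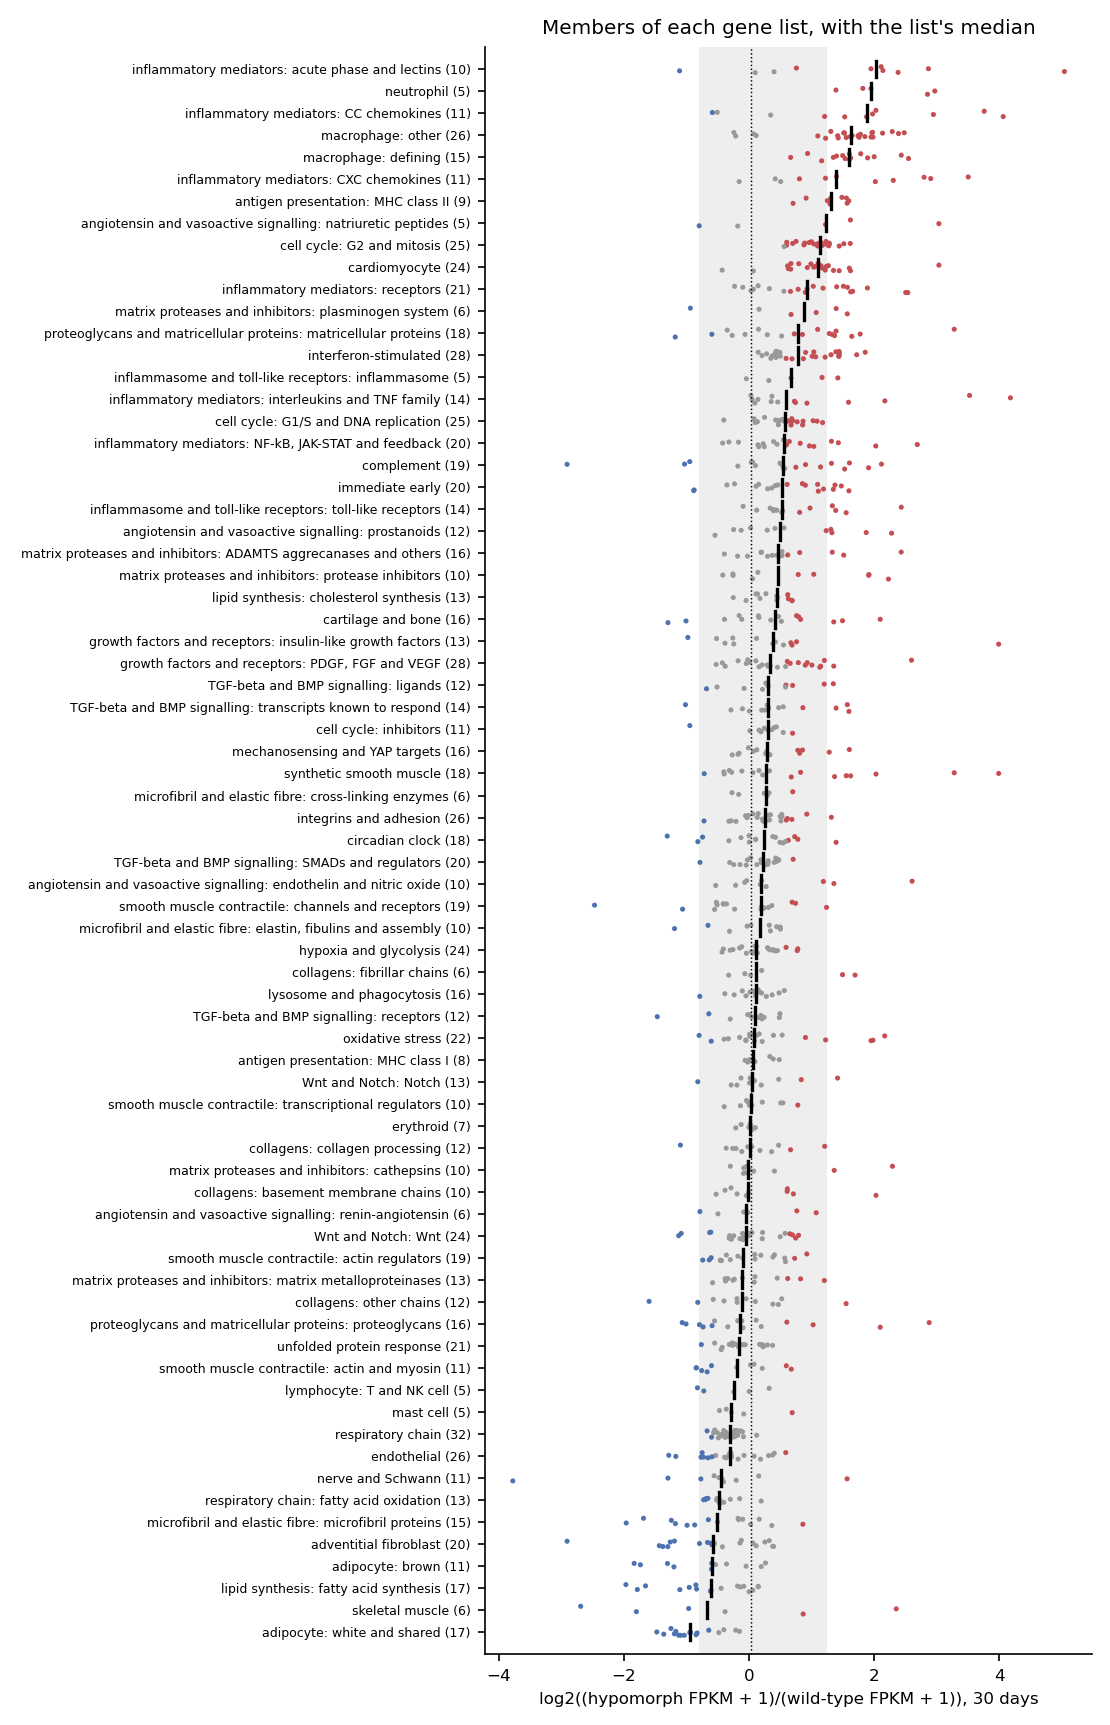
Log2 difference (hypomorph over wild type, 30 days) of each compared member of the gene lists with at least 5 compared members, 1 row per list and role with the number of members in brackets, ordered by median (black bar). Red and blue points are at least 1.5-fold higher and lower, the dotted line is the median of all 13930 compared genes (0.04) and the grey band holds their middle 95% (-0.79 to 1.23); acute phase genes, chemokines and macrophage markers lie at the top, and white adipocyte genes at the bottom.

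Genes of cell division stood higher, with those of mitosis farther from equal than those of DNA replication. Of 25 compared genes of G2 and mitosis 24 were at least 1.5-fold higher and 0 lower, beside 8.72% and 5.18% of all genes, and 4 of the 25 were under 1 FPKM in wild type. Their median was 1.13, and their summed level was 179 FPKM in the hypomorph against 67.9 FPKM in wild type. Cdk1, the kinase that drives entry into mitosis, was at 18.9 against 5.48 FPKM, the ubiquitin-conjugating enzyme Ube2c at 15.1 against 4.65 FPKM, the survivin gene Birc5 at 8.28 against 2.42 FPKM and Mki67, encoding Ki-67, at 4.29 against 1.47 FPKM. Of 25 compared genes of G1/S and replication, 12 were at least 1.5-fold higher, with a median of 0.57; the ribonucleotide reductase subunit Rrm2 was at 8.04 against 3.00 FPKM and Ccnd1 (cyclin D1) at 30.3 against 13.7 FPKM. Pcna was at 59.9 against 42.8 FPKM and Ccnd3 at 58.7 against 78.0 FPKM. Of the inhibitors of the cycle, Cdkn1a (p21) was at 66.1 against 40.5 FPKM and Cdkn1c (p57) at 7.01 against 14.4 FPKM.

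Promoters of the mitotic genes were searched for the cell cycle homology region, TTTGAA, and the CCAAT box, which together place many such genes under control of the cell cycle. On either strand, TTTGAA was found in 9 of 21 members with a promoter (42.9%), in 18.3% of 27025 genes and in 12.9% of 9886 compared genes. CCAAT was found in 17 of 21 (81.0%), in 37.5% of genes and in 40.3% of compared genes. Members were searched whatever their difference, so these shares do not bear on the genotypes. Cdk1 (chr10:69352913-69353162, minus strand) and Ube2c (chr2:164769679-164769928, plus strand) are shown with both motifs in capitals on either strand.
Cdk1: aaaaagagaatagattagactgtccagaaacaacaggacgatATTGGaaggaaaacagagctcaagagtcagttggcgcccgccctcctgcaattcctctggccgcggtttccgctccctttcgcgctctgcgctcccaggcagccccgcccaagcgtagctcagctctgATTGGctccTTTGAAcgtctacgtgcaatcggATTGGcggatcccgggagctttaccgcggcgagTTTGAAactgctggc
Ube2c: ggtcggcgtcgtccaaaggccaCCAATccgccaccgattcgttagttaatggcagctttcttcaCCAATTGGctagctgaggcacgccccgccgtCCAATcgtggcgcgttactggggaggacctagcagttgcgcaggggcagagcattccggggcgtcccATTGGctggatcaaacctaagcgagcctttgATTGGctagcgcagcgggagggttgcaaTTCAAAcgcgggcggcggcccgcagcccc
Cdk1 held 2 matches of TTTGAA, the nearer beginning 15 bases before the start, with 3 CCAAT boxes, and Ube2c held 1 that begins at 29 bases with 6 CCAAT boxes.

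Immediate early genes, induced within minutes by growth factors or by handling of tissue, leaned higher, with a median of 0.53. Of 20 compared, 16 were on the higher side, beside 55.0% of all genes. At least 1.5-fold higher were 10 and lower 2, beside 8.72% and 5.18% of all, and 1 of the 20 was under 1 FPKM in wild type. Fosl1 (4.47 against 0.969 FPKM), Egr3 (6.21 against 1.79 FPKM), Nr4a3 (14.5 against 5.10 FPKM) and Myc (9.60 against 3.92 FPKM) were higher, Fos was at 12.5 against 6.21 FPKM, and Atf3 was lower at 18.3 against 34.6 FPKM.

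Growth factors and their binding proteins held a few large differences. Igfbp2, a carrier of insulin-like growth factors, stood at 502 FPKM in the hypomorph and 30.7 FPKM in wild type (log2 difference 3.99). Its ligand Igf1 was at 39.97 against 79.7 FPKM, and other binding proteins differed little, such as Igfbp4 (607 against 467 FPKM) and Igfbp7 (2706 against 2490.5 FPKM). Fgf2 was at 39.4 against 14.8 FPKM, and Hgf at 2.26 against 0.489 FPKM. The PDGF receptors Pdgfrb (75.1 against 67.2 FPKM) and Pdgfra (26.3 against 35.7 FPKM) were within 1.5-fold.

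Of vasoactive systems, natriuretic peptides showed the largest difference. Nppa, encoding atrial natriuretic peptide, was at 136 FPKM in the hypomorph and 15.7 FPKM in wild type, and Nppb at 3.94 against 0.608 FPKM; Nppa shares its span with 1 other gene. Their clearance receptor Npr3 was at 10.8 against 4.07 FPKM and the signalling receptor Npr1 at 72.8 against 127 FPKM. Cardiac muscle markers stood higher in the same samples: 22 of 24 were at least 1.5-fold higher and 0 lower, beside 8.72% and 5.18% of all genes, with a median of 1.11. Of the 24, 4 were under 1 FPKM in wild type. Their summed level was 1532 FPKM against 769 FPKM, none was at 0, and the list includes Nppa and Nppb. Of its sarcomere genes, Myh6 was at 94.9 against 45.1 FPKM, Myl4 at 125 against 57.6 FPKM and Tnni3 at 134 against 70.0 FPKM, ratios of 2.103, 2.17 and 1.92 where that of Nppa was 8.64. The part of heart muscle in the value of Nppa was not tested.

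In the renin-angiotensin system, a target of treatment in Marfan syndrome, the receptor Agtr1a was at 2.25 against 2.29 FPKM, the converting enzyme Ace at 152 against 215 FPKM and the precursor Agt at 1.56 against 0.510 FPKM. Of the prostanoid pathway, the inducible cyclooxygenase Ptgs2 was at 12.01 against 1.69 FPKM, whereas the constitutive Ptgs1 was at 21.9 against 16.2 FPKM and the prostacyclin synthase Ptgis at 343 against 375 FPKM. The leukotriene genes Alox5ap (119 against 31.9 FPKM) and Alox5 (7.89 against 2.59 FPKM), both of leukocytes, were higher beside the macrophage markers. Arginase 1 (Arg1) was at 5.99 against 0.149 FPKM and the endothelin receptor Ednrb at 8.21 against 2.60 FPKM. Endothelin 1 (Edn1) and the endothelial nitric oxide synthase Nos3 were not higher, at 9.23 against 10.9 FPKM and 12.9 against 19.1 FPKM.

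Smooth muscle contractile genes had a median of 0.01 over 59 compared of 66 listed. Of the 59, 8 were at least 1.5-fold higher and 10 lower, beside 8.72% and 5.18% of all genes. Among actin and myosin genes, Myh11, the smooth muscle myosin heavy chain, was at 563 against 854 FPKM, Myl9 at 2946 against 5277 FPKM, Tpm2 at 1452.5 against 2312 FPKM and Actg2 at 119 against 216 FPKM, each at least 1.5-fold lower. Tpm4, the tropomyosin of non-muscle cells, was higher at 265 against 166 FPKM, as was Actn1 at 425 against 281 FPKM. Calponin (Cnn1) was at 308 against 469 FPKM, Tagln at 3461 against 3916 FPKM, Cald1 at 611 against 368 FPKM and vinculin (Vcl) at 93.0 against 48.6 FPKM. The regulators Myocd (51.0 against 35.6 FPKM) and Srf (27.9 against 28.7 FPKM) did not stand lower. The vasodilator receptor Vipr2 was at 1.21 against 11.2 FPKM (log2 difference -2.47), and Vipr1 at 1.604 against 4.44 FPKM.

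Genes used to mark the synthetic state of smooth muscle had a median of 0.27. Of 18, 8 reached 1.5-fold upward and 1 downward, beside 8.72% and 5.18% of all genes. Igfbp2, Spp1, Col8a1, Tnfrsf11b, Lgals3 (56.4 against 18.6 FPKM) and Fn1 were the 6 at least 2-fold higher; Lgals3 and Spp1 are also made by macrophages. Mgp, an inhibitor of calcification, was at 5958 against 3367 FPKM. Vim (3045 against 3692 FPKM), Myh10 (151 against 188 FPKM) and Klf4 (36.8 against 48.7 FPKM) were not higher. Of genes that respond to stretch through YAP and related factors, Ankrd1 was at 45.1 against 14.2 FPKM, and it is also a cardiac marker; Crim1 was at 63.1 against 25.4 FPKM, Ccn1 at 174 against 95.7 FPKM, and Yap1 itself at 41.6 against 38.1 FPKM. Integrins were close to equal, such as Itgb1 (594 against 478 FPKM) and Itga8 (534 against 426 FPKM), while the hyaluronan receptor Cd44 was at 45.3 against 17.6 FPKM.

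Endothelial markers leaned lower, with a median of -0.31 over 26 genes. Of these, 7 were at least 1.5-fold lower and 1 higher, beside 5.18% and 8.72% of all genes. Pecam1 was at 128 against 216 FPKM, Vwf at 75.9 against 126 FPKM and the arterial connexin Gja5 at 15.1 against 38.2 FPKM, whereas Cdh5 (24.7 against 30.1 FPKM) and Kdr (5.98 against 5.14 FPKM) lay closer. Their summed level was 1060 FPKM in the hypomorph and 1760 FPKM in wild type, with none at 0. Adventitial fibroblast markers had a median of -0.57, and 10 of 20 reached 1.5-fold downward and 0 upward, beside the same shares of all genes. Pi16, a marker of stem-like adventitial fibroblasts, was at 210 against 568 FPKM, Clec3b at 136 against 354 FPKM and Scara5 at 34.4 against 83.6 FPKM, while others did not stand lower: Ly6a was at 208 against 199 FPKM and Dpp4 at 5.58 against 4.01 FPKM. The summed level of this list was 4029 FPKM against 6289 FPKM. Several microfibril and proteoglycan genes that were lower, such as Mfap5 and Dcn, are also made by these fibroblasts, and that overlap was not tested.

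Markers of tissues around the aorta differed between the genotypes. White adipocyte genes had a median of -0.95, and 13 of 17 compared reached 1.5-fold downward and 0 upward, beside 5.18% and 8.72% of all genes. Their summed level was 970 FPKM in the hypomorph and 1879 FPKM in wild type. Adiponectin (Adipoq) was at 30.5 against 66.3 FPKM, perilipin 1 (Plin1) at 11.0 against 29.8 FPKM and the fatty acid carrier Fabp4 at 316 against 711 FPKM. Of brown fat genes, Ucp1, the uncoupling protein, was at 18.1 against 67.1 FPKM and Cidea at 17.7 against 61.2 FPKM. Fatty acid synthesis genes, which fat cells express at high levels, were lower beside them: Fasn at 57.0 against 199 FPKM, Scd1 at 95.7 against 303 FPKM and Thrsp at 18.2 against 74.2 FPKM, with 9 of 17 at least 1.5-fold lower. Cholesterol synthesis genes went the other way, with a median of 0.44 over 13 compared and 4 at least 1.5-fold higher, among them Sqle (11.7 against 6.92 FPKM).

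Nuclear-encoded respiratory chain genes were lower by a small amount in 31 of 32 compared, beside 6274 of all 13930 compared genes. Their median was -0.31, with Cox4i1 at 339 against 496 FPKM and Atp5b at 670 against 767 FPKM. Their transcripts are short, with a median length of 1428 bases, and the bin of the shortest genes had a median log2 difference of -0.16. Fatty acid oxidation genes had a median of -0.48 over 13 compared, with Acadvl at 61.5 against 97.51 FPKM. Brown fat markers were lower in the same samples, and the part of transcript length or fat in these differences was not tested.

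Nerve and skeletal muscle markers were mixed. The 11 compared nerve and Schwann cell genes had a median of -0.45, and their summed level was 194 FPKM in the hypomorph and 299.8 FPKM in wild type. Mbp, a myelin gene, was at 3.41 against 9.82 FPKM, while S100b (4.19 against 5.89 FPKM) and Sox10 (0.859 against 1.51 FPKM) were nearer to equal. Of muscle genes, Mylk2 was at 0.697 against 9.96 FPKM and Casq1, the fast-fibre calsequestrin, at 25.4 against 91.1 FPKM. Acta1, the skeletal muscle actin, was higher at 16.9 against 2.51 FPKM, and its listed span overlaps 158 other genes. Other markers of fast fibres were nearly absent from both groups: Myh1, Myh2, Pvalb and Ryr1 were each at most 0.331 FPKM. The median of the 6 compared muscle genes was -0.67, but it was 0.062 over the members above 0 in both groups at any level.

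Further genes with large negative differences belonged to no list. The O-glycosylation enzyme Galnt6 was at 1.78 against 13.5 FPKM, the olfactory receptor gene Olfr224 at 4.64 against 20.0 FPKM, Ccdc42 at 7.87 against 31.4 FPKM, the kallikrein gene Klk10 at 2.21 against 10.6 FPKM, Fam107a at 3.84 against 16.5 FPKM, the peptide hormone gene Cck at 0.332 against 3.73 FPKM and the glycerol phosphate dehydrogenase Gpd1 at 30.8 against 110 FPKM. Gpd1 is known from fat and muscle, whose markers are described above. Klk10 shares its span with 7 other genes and Galnt6 and Gpd1 with 1 each.

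The differences at 30 days can be set beside those of the same genotypes at 16 and 60 days, which come from tables normalised separately and from other libraries. Of the 523 genes at least 2-fold higher at 30 days, 439 could be compared at 16 days, where 377 were on the higher side and 76 at least 2-fold higher, beside 50.9% and 0.948% of all genes compared at both ages. At 60 days 499 could be compared, of which 487 were on the higher side and 386 at least 2-fold higher, beside 62.6% and 4.91% of all. Il6 was near 0 in both genotypes at 16 days (0.0314 FPKM in the hypomorph and 0.0732 FPKM in wild type) and at 6.64 against 0.102 FPKM at 60 days. Saa3 went from 2.09 against 1.602 FPKM at 16 days to 66.0 against 0.328 FPKM at 60 days. Igfbp2 and Nppa differed at each age, Igfbp2 with 147 against 12.6 FPKM at 16 days and 934 against 27.6 FPKM at 60 days, and Nppa with 214 against 14.3 and 108 against 13.7 FPKM.

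Of the 185 genes at least 2-fold lower at 30 days, 157 of 173 compared were on the lower side at 16 days and 143 of 177 at 60 days, beside 49.1% and 37.4% of all genes compared at both ages. Mfap4 was at 327 against 1305 FPKM at 16 days (the authors' deposited table gives a q-value of 2.87e-10), and at 202 against 1216 FPKM at 60 days. C7 was at 2.99 against 7.09 FPKM at 16 days (q-value there 0.109, from the authors' deposited table), and at 10.1 against 134 FPKM at 60 days. Thrsp was on the higher side at 60 days, at 64.5 against 52.9 FPKM, and Ucp1 was near equal there at 33.0 against 34.5 FPKM. The median of white adipocyte genes was -0.95 at 30 days but 0.07 at 16 days and 0.46 at 60 days. Cardiac markers had medians of -0.03 at 16 days, 1.11 at 30 days and 0.56 at 60 days, while Nppa was higher at each age.

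**Figure D5:**
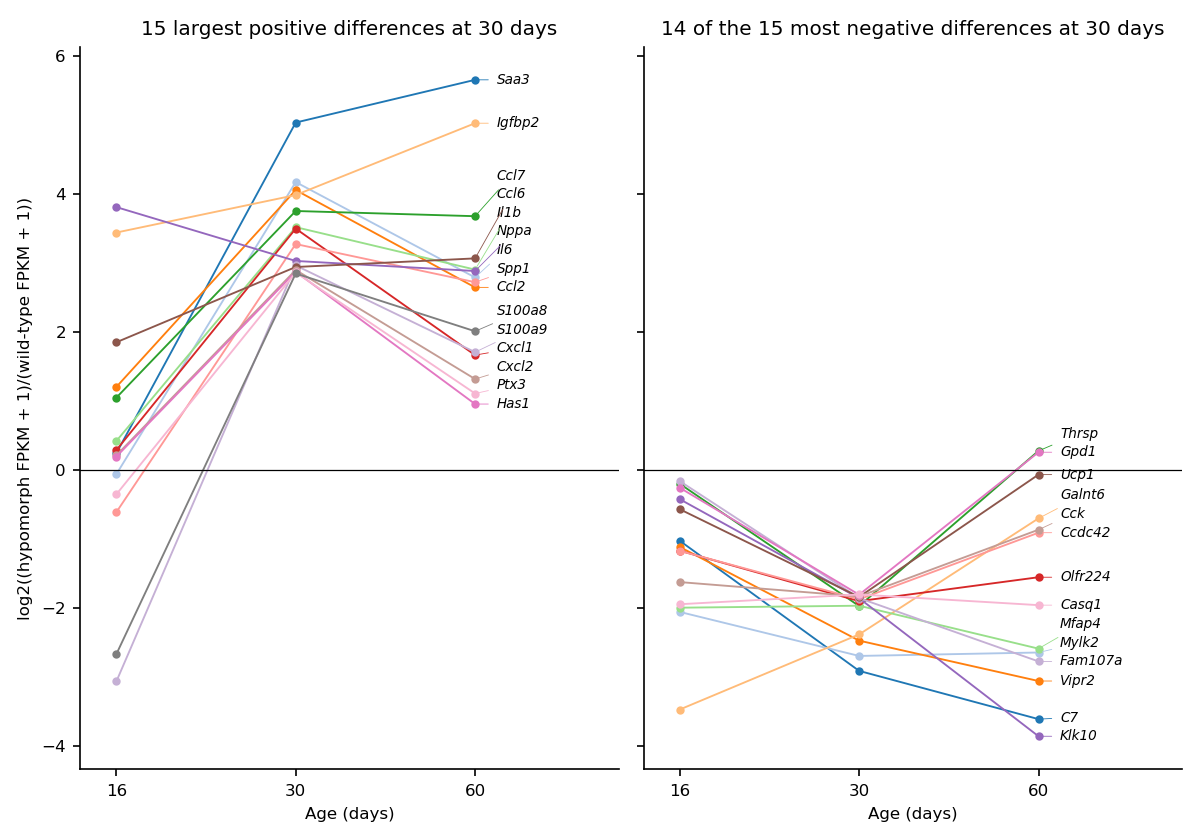
Log2 difference between hypomorph and wild type at 16, 30 and 60 days (spaced evenly) for the 15 genes with the largest positive (left) and 14 of the 15 with the most negative (right) difference at 30 days; each line is 1 gene, and each age comes from a separately normalised table. Saa3, Il6, Il1b, Cxcl1 and Cxcl2 lie between -0.06 and 0.42 at 16 days and above 1 at 30 and 60 days, S100a8 and S100a9 lie below 0 at 16 days, and Mfap4 lies below 0 at all 3 ages.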

How the data were processed

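RNA of aorta was sequenced in 8 libraries (4 per genotype) at 30 days. The libraries kept strand and held poly-A RNA, sequenced as read pairs, per the labels' protocols. Cufflinks 1.3.0, TopHat2 2.0.8, SAMtools 0.1.7, Bowtie2 2.1.0 and the build mm9 are named, without settings, per the submitters' processing notes. The authors deposited FPKM, 1 pooled value per gene and genotype, and at 16 days also their own p-values and q-values. Which libraries each value pools is not stated. Wild-type values were listed 3 times and differed for 17 genes, where a listing was 0; the larger value was kept. Further row groups, 1 of them at 30 days, have names that fit no labelled sample and stayed out.

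The log2 difference used a pseudocount of 1 FPKM and a mean of at least 1 FPKM. Pooled values allow no test, so folds of 2 and 1.5 describe size only. Named were Fbn1, the 15 largest differences each way (no predicted genes or gene segments), and from 38 lists the first 4 members of each role and each list's 8 with the largest differences. Other list members that the text names, many of them to show values near equal or in the other direction, were chosen after their values were seen. Some named members are not reported here. Members and lists were chosen with earlier results of these data known. Of 1185 list genes 1173 matched and 1010 were compared. Genes that overlap can share reads; use of strand in counting is not stated. Lengths came from GENCODE M21, promoters from RefSeq. Python 3.11.15, numpy 2.4.6, pandas 2.3.3, scipy 1.17.1 and matplotlib 3.10.9 were used. The formula of the log2 difference was run on wild-type values with known folds put in. That run checks the code only, since the known differences came from the same formula. Alternatives were other pseudocounts, filters, scaling and listings.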

Additional observations from a re-analysis of the deposited data

How the results depend on the processing

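Each count and median was recomputed under 6 alternatives: a pseudocount of 0.1 FPKM, no pseudocount, no filter on level, a mean of at least 5 FPKM, scaling by the median ratio (1.03), and the smaller of repeated listings above 0. The genes at least 2-fold higher (523) became 805 with no pseudocount and 273 at a mean of at least 5 FPKM, where those at least 1.5-fold higher (1214) became 651. The genes at least 2-fold lower (185) became 325 with a pseudocount of 0.1 and 343 with none. Of 436 recomputed medians of roles and lists, 431 counted as unchanged. These moved by no more than their members' interquartile range, and those of at least 0.585 in size kept their sign. Smaller medians could change sign and still count as unchanged. That of smooth muscle channels and receptors went from 0.19 to -0.38 at a mean of at least 5 FPKM. The neutrophil median of 1.95 became 3.21 with a pseudocount of 0.1 and 3.34 with none, and 1.08 without the filter on level; that of G2 and mitosis 1.52 with none (1.13), that of B and plasma cells 0.24 without the filter on level (0.85, over 2 genes), and that of skeletal muscle 0.062 without that filter, from -0.67. The filter decides which genes enter, and a smaller pseudocount widens differences of genes at low levels. Under scaling, 9 named genes just above 2-fold dropped below it: Prg4, Slpi, Osmr, Tnnt2, Fgf1, Uhrf1, Rsad2, Ifit3 and Zc3h12a. None of 1017 named genes changed direction past 2-fold, but these alternatives could not have reversed one. Pseudocounts and filters keep the sign of a difference, the repeated listings differed only where one was 0, and the scaling factor was 1.03. Mast cell and T cell medians had no value at a mean of at least 5 FPKM. No paired analysis was possible because each genotype has 1 pooled value, and leaving out single libraries could not be run for the same reason. Depth is unknown, and no spread between libraries stands behind any value.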

Other observations

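Clock genes, which cycle through the day, differed between genotypes in opposite directions within the loop. The activators Arntl (Bmal1) and Npas2 were at 1.57 against 3.52 FPKM and 1.45 against 5.05 FPKM in hypomorph and wild type, and the repressor and output genes Ciart (9.30 against 2.93 FPKM), Dbp (162 against 97.55 FPKM) and Per3 (12.6 against 7.82 FPKM) were higher. Of 18 compared members 4 reached 1.5-fold upward and 3 downward, beside 8.72% and 5.18% of all genes. The labels name no hour of tissue collection.

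Genes of the unfolded protein response had a median log2 difference of -0.17 over 21 genes, with 0 at least 1.5-fold higher; Ddit3 (CHOP) was at 21.2 against 36.6 FPKM and Hspa5 at 390 against 347 FPKM. Glycolysis and hypoxia genes had a median of 0.12 over 24. Of these, 3 were at least 1.5-fold higher, beside 8.72% of all genes, among them Hif1a at 49.9 against 32.8 FPKM. Of oxidative stress genes, heme oxygenase 1 (Hmox1) was at 47.6 against 9.81 FPKM, and the NADPH oxidase subunits of phagocytes Cybb (13.99 against 2.8002 FPKM) and Ncf1 (13.3 against 2.72 FPKM) were higher, whereas Nox4 of smooth muscle was at 76.4 against 52.7 FPKM and extracellular superoxide dismutase Sod3 at 244 against 425 FPKM. Of the Wnt inhibitors, Wif1 was at 19.5 against 43.6 FPKM and Sfrp2 at 220 against 469 FPKM, and of the Notch receptors Notch3 was at 30.7 against 10.9 FPKM.

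The values of 4 genes, chosen after they were seen, go opposite ways between ages. S100a9 was at 30.2 against 2.99 FPKM at 30 days but at 1.94 against 23.6 FPKM at 16 days. S100a8 was at 21.7 against 2.14 FPKM and, at the earlier age, 1.97 against 17.8 FPKM. Cthrc1, secreted by activated fibroblasts, stood at 68.7 against 19.4 FPKM, but at 11.4 against 31.6 FPKM at the earlier age. Sparcl1 went from 192 against 70.5 FPKM at 16 days to 217 against 492 FPKM. In the authors' deposited table the q-values at 16 days are 5.23e-08 for S100a9, 0.000686 for S100a8, 4.45e-10 for Cthrc1 and 0.00448 for Sparcl1.

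The most abundant gene at least 2-fold higher was the predicted gene Gm12840, at 2219 FPKM in the hypomorph and 558 FPKM in wild type; it was chosen after its values were seen.

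Both chromosome windows below were chosen after values were seen. Within 10 Mb of Fbn1 on chromosome 2, 6 of 195 compared genes (3.08%) were at least 2-fold lower, against 1.33% on the rest of that chromosome. They included Tyro3 (3.17 against 8.77 FPKM), Dnajc17 (4.15 against 11.53 FPKM), Capn3 (0.262 against 2.56 FPKM) and Mall (8.20 against 20.6 FPKM). In the same window 10 genes (5.13%) were at least 2-fold higher, against 2.77% on the rest of that chromosome. Among these 10 were Gatm (17.6 against 2.68 FPKM) and Duoxa1 (4.30 against 0.690 FPKM). They also held Il1b (13.1 against 0.224 FPKM) and Thbs1 (148 against 56.0 FPKM), described above among mediators and matricellular proteins. Between 58 and 62 Mb of chromosome 11, 6 of 80 compared genes (7.50%) were at least 2-fold lower against 1.19% of the rest of that chromosome: Mfap4, Aldh3a1 (2.19 against 8.32 FPKM), Trim58 (1.24 against 5.25 FPKM), Olfr224, Olfr328 and Olfr330.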
